A study of Mus musculus with 3 samples.

Results

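Myc, Mycn and the proteins that share or compete for their partner Max were followed in mouse bone marrow at single-cell resolution. The 7 genes were taken by symbol from the 32285 genes of the deposited matrices: Myc, Mycn, Max, Mxd1, Mxd4, Mxi1 and Mnt. All 7 were detected in every library. Cells were taken from femora, tibiae, hips and spines and sorted by flow cytometry into 3 preparations: lineage-negative cells labelled LSK (by convention Kit-positive and Sca-1-positive), lineage-negative cells labelled LK (Kit-positive), and total bone marrow, labelled TBM. Each preparation was 1 10x Genomics 3' v2 library. The strain, sex, age, genotype, treatment and number of mice are not stated in the labels, so the 3 groups are described only by their gates, and no replicate error could be measured.

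Myc and Mycn are basic helix-loop-helix leucine zipper proteins that bind DNA as heterodimers with Max, mostly at E-boxes of the letters CACGTG, and drive genes of ribosome assembly, nucleotide synthesis and growth. Mxd1, Mxd4, Mxi1 and Mnt also pair with Max, recruit the Sin3 corepressor and bind the same sites, so that the make-up of the Max dimers sets whether such sites are activated or repressed. In blood formation Myc and Mycn act together to keep stem cells alive and growing, Myc is needed for stem cells to leave the niche and differentiate, and Mxd proteins are associated with cells that leave the cell cycle. Max itself is the shared partner and is transcribed in most cell types.

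After filtering, 1068 LSK, 3462 LK and 4225 TBM cells remained, with 11846214, 49987629 and 22032897 unique molecular identifiers (UMIs, counts of captured transcripts) and medians of 9684, 13689.5 and 3355 UMIs per cell. The gate genes matched the labels. The Sca-1 gene, Ly6a, had 100.9 CPM (UMIs of the gene per 1000000 UMIs of all genes) in LSK, 7.74 in LK and 30.7 in TBM, and Kit had 81.2, 34.5 and 7.62 CPM. All levels are CPM of summed UMIs, and square brackets hold exact 95% Poisson intervals for levels, exact conditional intervals for log2 ratios and Clopper-Pearson intervals for shares. These intervals cover counting error only, not differences between mice or sorts. With summed UMIs, fewer expressing cells and less RNA per cell cannot be told apart. LSK and LK shared 6 cell barcodes, LSK and TBM 6, and LK and TBM 25.

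The members lie on 6 chromosomes of the GRCm38 (mm10) build, by GENCODE M21. Myc is at chr15:61985391-61990374 (plus strand), Mycn at chr12:12936093-12941914 (minus), Max at chr12:76937269-76962201 (minus), Mxd1 at chr6:86647042-86669161 (minus), Mxd4 at chr5:34173883-34187720 (minus), Mxi1 at chr19:53310518-53375810 (plus) and Mnt at chr11:74830920-74845725 (plus). All are protein-coding. Mxi1 overlaps AC133451.2 on the opposite strand, which had 66 UMIs over all cells against 2250 for Mxi1, and whether reads were counted by strand is not stated.

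Of the 7 members, 6 had an entry in the RefSeq promoter table (GRCm38.p6), and the 250 bases before each start were searched for CACGTG, which reads the same on both strands. The letters were found in Mxd4 and in Mnt, 219 and 123 bases before the start, and in none of the windows of Mycn, Max, Mxd1 and Mxi1. Of all 32851 promoter windows of that length 6.02% held them. A match is a run of letters and no measured binding site, and a window without it says nothing about binding. The Mxd4 and Mnt windows are printed because they hold the letters and because the levels of these 2 genes varied together across cell classes. Those of Mycn and Mxd1 are printed because their levels varied most. A link between the letters and the levels was not tested. Max, whose window lacks the letters, had Pearson correlations of 0.71 with Mxd4 and 0.71 with Mnt across the classes. Capitals mark CACGTG, the sequences run 5' to 3' on the gene's strand, and bases inside the GENCODE gene are left out.
Mxd4 promoter, chr5:34187721-34187960, minus strand: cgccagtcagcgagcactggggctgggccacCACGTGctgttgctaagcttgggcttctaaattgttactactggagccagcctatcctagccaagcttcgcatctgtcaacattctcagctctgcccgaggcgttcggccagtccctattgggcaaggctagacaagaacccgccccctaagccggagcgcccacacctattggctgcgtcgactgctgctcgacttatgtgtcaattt
Mnt promoter, chr11:74830674-74830919, plus strand: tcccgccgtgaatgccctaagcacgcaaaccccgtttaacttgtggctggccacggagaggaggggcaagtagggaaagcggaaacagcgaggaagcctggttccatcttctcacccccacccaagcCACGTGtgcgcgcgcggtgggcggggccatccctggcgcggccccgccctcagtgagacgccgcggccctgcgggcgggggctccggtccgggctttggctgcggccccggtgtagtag
Mycn promoter, chr12:12941915-12942086, minus strand: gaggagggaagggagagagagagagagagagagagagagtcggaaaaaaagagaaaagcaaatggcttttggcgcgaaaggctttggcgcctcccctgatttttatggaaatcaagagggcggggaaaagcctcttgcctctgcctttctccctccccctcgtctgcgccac
Mxd1 promoter, chr6:86669162-86669409, minus strand: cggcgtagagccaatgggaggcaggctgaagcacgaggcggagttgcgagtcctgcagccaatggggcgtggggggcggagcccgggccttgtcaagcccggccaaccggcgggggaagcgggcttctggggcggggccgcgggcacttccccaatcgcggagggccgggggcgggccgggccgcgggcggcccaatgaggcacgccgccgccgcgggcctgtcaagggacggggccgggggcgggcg

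Of the members, Mycn differed most between LSK and LK. Mycn stood at 56.1 CPM [51.9 to 60.6] in LSK, 8.66 CPM [7.87 to 9.52] in LK and 2.54 CPM [1.92 to 3.30] in TBM, from 665, 433 and 56 UMIs. LSK exceeded LK by a log2 ratio of 2.70 [2.52 to 2.87], or 6.48-fold, while the 13018 genes that had 20 UMIs or more in the pair of libraries had a median of 0.34. Giving each cell equal weight lowered the log2 ratio to 2.04, and scaling by size factors to 2.42. Myc was nearly level between these gates, at 117 CPM [111 to 123] in LSK and 94.0 CPM [91.3 to 96.7] in LK, a log2 ratio of 0.31 [0.22 to 0.40] that was 0.03 with size factors. In TBM Myc was at 22.4 CPM [20.4 to 24.4]. Mycn made up 32.5% [30.5 to 34.6] of the Myc plus Mycn UMIs in LSK, 8.44% [7.69 to 9.23] in LK and 10.2% [7.80 to 13.04] in TBM.

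By a rule of a 2-fold difference in CPM, 1 member (Mycn) was higher in LSK relative to LK and 0 were lower. Among all genes 19.9% were higher and 3.73% lower by this rule. The other 6 members lay between log2 ratios of 0.10 for Max and 0.64 for Mnt, around the 0.34 median, and Max turned to -0.17 with size factors. Mxd4 (0.60), Mxi1 (0.54) and Mxd1 (0.44) were near each other.

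Against TBM both activators were higher in the progenitor gates. The log2 ratio of LK over TBM was 2.07 [1.94 to 2.21] for Myc and 1.77 [1.36 to 2.20] for Mycn, and that of LSK over TBM was 2.38 [2.23 to 2.53] for Myc and 4.47 [4.07 to 4.89] for Mycn. With equal weight for each cell the LK over TBM values were 2.83 and 3.28, and the LSK over TBM values 3.09 and 5.32. With size factors the LSK over TBM values were 1.71 and 3.79. Both comparisons share the TBM library.

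Mxd1, which encodes the repressor MAD1, went the other way. It stood at 11.6 CPM [9.71 to 13.7] in LSK, 8.5 CPM [7.71 to 9.35] in LK and 70.6 CPM [67.2 to 74.2] in TBM, so that the log2 ratio of LK over TBM was -3.05 [-3.21 to -2.90]. Equal weight for each cell moved this to -3.57. In LSK over TBM it was -2.61 [-2.87 to -2.36], or -3.28 with size factors. Mxi1, the repressor also known as Mxd2, differed less, with 30.3, 20.8 and 38.7 CPM in LSK, LK and TBM. Mxd4 had 50.6, 33.4 and 29.6 CPM, and its LK over TBM log2 ratio of 0.17 became -0.22 with size factors. Mnt, the broadly expressed antagonist, had 12.6, 8.06 and 5.63 CPM. Max had nearly the same CPM throughout, at 91.3, 84.9 and 93.4, but its LSK over TBM log2 ratio of -0.03 was -0.71 with size factors.

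Of the 7 members 2 (Myc and Mycn) were at least 2-fold higher and 1 (Mxd1) at least 2-fold lower in LK than in TBM, where 27.3% of all genes were higher and 16.7% lower by that rule. In LSK over TBM 3 were higher (Myc, Mycn and Mnt) and 1 lower (Mxd1), against 36.9% and 13.1% of all genes. Size factors, which shift LK over TBM by 0.39 and LSK over TBM by 0.67 on the log2 scale, brought the members at least 2-fold lower to 2 in each, Mxd1 and Mxi1, and Mnt in LSK over TBM from 1.16 to 0.49. As shares of 7, the counts without size factors lie near the background and are no result about the members as a set. No share of all genes is given with size factors, so the counts with that scaling have no background beside them.

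**Figure D1:**
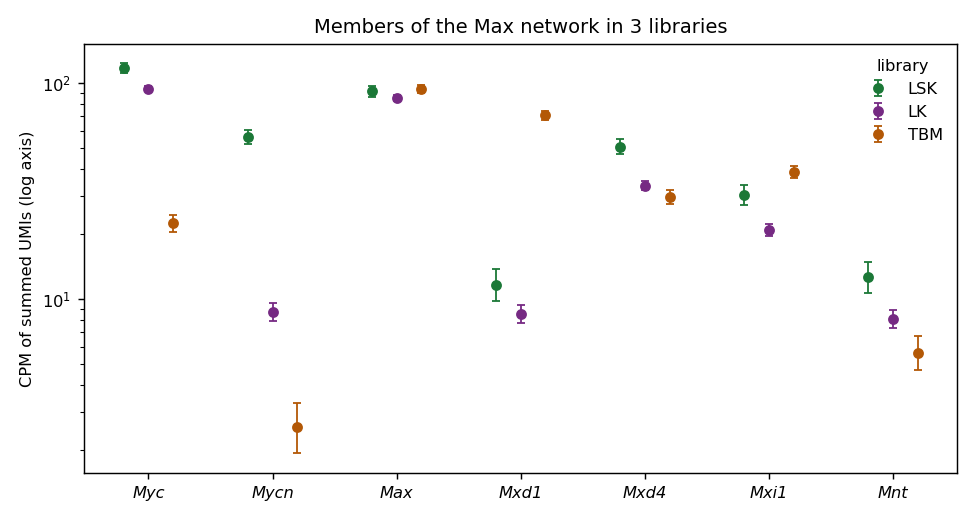
Level of the 7 members in CPM of summed UMIs (log axis) in the LSK, LK and TBM libraries, with exact 95% Poisson intervals that cover counting error only. Mycn is at 56.1 for LSK, 8.66 for LK and 2.54 for TBM, Mxd1 is highest in TBM at 70.6, and Max stays between 84.9 and 93.4.

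The share of cells with a UMI followed these levels once depth was equalised. Unthinned, the cells of LSK, LK and TBM held a Myc UMI in 60.9%, 62.7% and 5.59% of cases and a Mycn UMI in 29.4%, 9.39% and 0.568%. After thinning each cell to 2000 UMIs, which left out 9 LK and 1288 TBM cells, Myc was seen in 22.1% [19.6 to 24.7], 18.0% [16.7 to 19.3] and 2.62% [2.07 to 3.27], and Mycn in 9.46% [7.77 to 11.4], 2.98% [2.44 to 3.61] and 0.272% [0.118 to 0.536]. Thinned Max was seen in 17.6%, 16.0% and 18.2% of cells, which overlap in their intervals. Mxd1 was seen in 2.06% and 1.88% of thinned LSK and LK cells and in 13.1% of TBM cells. The LK cluster led by Prg2, Elane and Ms4a3 (median 20011 UMIs) showed Mycn in 0.153% of thinned cells. The part of free RNA in this share was not tested.

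Mycn UMIs were unevenly spread. The 10 LSK cells with the most Mycn held 13.7% of its UMIs, with up to 12 in a cell, against 6.44% for Myc, with up to 10. In TBM the 10 highest cells held 75.0% of the 56 Mycn UMIs. When TBM was clustered by itself, 50 of the 56 lay in the 143 cells of a cluster led by Mpo, Igha and Prg2, which stayed unnamed and had 20.8 CPM [15.4 to 27.4] of Mycn and 111 CPM of Myc.

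Within LSK, Mycn and Myc were set against Procr and Flt3. Procr encodes EPCR, a surface marker of long-term stem cells, and Flt3 encodes the receptor that marks multipotent progenitors on the lymphoid path. Cells with a Procr UMI and none of Flt3 had 125 CPM [111 to 141] of Mycn, cells with both had 33.5 [26.4 to 42.0], cells with neither had 63.7 [55.6 to 72.6] and cells with Flt3 only had 24.2 [19.6 to 29.6]. These groups held 237, 193, 319 and 319 cells with median depths of 7728, 10108, 9753 and 11217 UMIs. Mycn was thus highest with Procr alone, and the intervals of the cells with both genes and of those with Flt3 only overlapped. Myc in the same order was 118 CPM [104 to 133], 133 [118 to 149], 113 [102 to 124] and 110 [99.7 to 121], and all of these intervals overlapped.

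The log2 ratio of Procr-only over Flt3-only cells was 2.37 [2.03 to 2.73] for Mycn, or 5.18-fold, and 0.10 [-0.13 to 0.33] for Myc. Mycn was the 1 member at least 2-fold higher and none was lower, where 5.74% of all genes were higher and 2.88% lower. Asking for at least 2 UMIs of Procr or Flt3 raised the Mycn value to 3.01, and thinning cells to 4000 UMIs before the split lowered it to 1.72. The Myc value turned to -0.35 on thinning and to -0.38 without cells that had a UMI of Mki67 or Top2a, so no direction is read for Myc. Of the other members Max was at 0.31 [0.07 to 0.56], but at 0.06 with at least 2 UMIs, 0.16 when thinned and 0.09 without cycling cells, while the intervals of Mxd1, Mxd4, Mxi1 and Mnt all held 0. Procr-only cells also had fewer transcripts of cycling genes, Mki67 at 30.4 CPM against 54.3, and the 10 genes of that list had a median log2 ratio of -0.88. The part of cycling in the Mycn difference was not tested beyond leaving those cells out, after which the Mycn value stayed within its interval.

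The share of Mycn among Myc plus Mycn UMIs gives the same contrast free of the library total. It was 51.5% [47.2 to 55.9] in Procr-only LSK cells, 20.2% [16.2 to 24.6] with both genes, 36.1% [32.3 to 40.0] with neither and 18.1% [14.9 to 21.6] with Flt3 only. The same split in LK gave 20.9% [14.9 to 27.9], 8.54% [3.50 to 16.8], 9.49% [8.54 to 10.5] and 4.08% [3.08 to 5.30], on Mycn levels of 28.3, 10.2, 9.32 and 4.56 CPM. Procr-only cells stood highest in both libraries, and each LK group was below the same group of LSK, with intervals that overlapped for cells with both genes. Thinned to 2000 UMIs, 16.9% [12.3 to 22.3] of Procr-only and 3.13% [1.51 to 5.69] of Flt3-only LSK cells had a Mycn UMI.

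Mycn was also graded with Procr. LSK cells with 0, 1, 2 and 3 or more Procr UMIs (638, 258, 107 and 65 cells) had 42.8, 60.1, 92.6 and 142 CPM of Mycn. The intervals at 2 [75.0 to 113.1] and at 3 or more [112.9 to 175.6] overlapped. Median depth was 10635.5 UMIs at 0 and 8123 at 3 or more, and the part of depth was not tested. Cells with 0 Procr UMIs include the 319 Flt3-only cells, so these steps are not separate from the split by both genes. Over the same steps of Flt3 (556, 225, 124 and 163 cells) Mycn was 87.3, 31.0, 34.0 and 19.4 CPM, lower from the first UMI on. Myc ranged from 111 to 127 CPM over the Procr steps and from 105 to 126 CPM over the Flt3 steps.

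**Figure D2:**
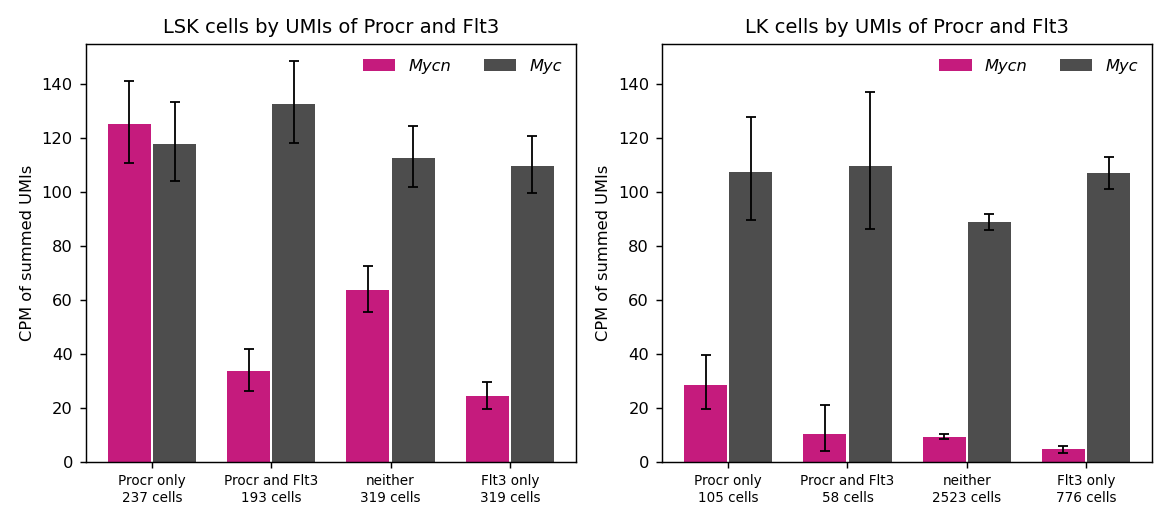
Mycn and Myc in CPM of summed UMIs (bars, from 0, with exact 95% Poisson intervals) in LSK and LK cells grouped by whether they held a UMI of Procr, of Flt3, of both or of neither. Mycn in LSK is 125 with Procr only and 24.2 with Flt3 only, whereas Myc lies between 110 and 133 in all 4 LSK groups.

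Clusters were built over all libraries without the members and without the other network and gate genes, and 15 of 23 could be named from marker lists, as cells of a kind "-like", which is a rebuilt name and not the submitters'. In LSK the Mycn UMIs concentrated in a cluster led by Mllt3, Sult1a1 and Myl10, where 202 cells had 219 CPM [196 to 244], against 34.7 CPM [30.8 to 39.0] in the 722 cells of the cluster led by Ctla2a, Hlf and Adgrl4. The 34 LK cells that fell into the first of these had 134 CPM [85.9 to 200]. Mycn and Procr are among the 10 genes that lead this cluster. Mycn was left out of the clustering, whereas Procr was not. In the 50 lymphoid-primed progenitor-like LSK cells, which had 498 CPM of Flt3, Mycn was at 37.0 CPM [23.2 to 56.0]. In the 40 megakaryocyte lineage-like LSK cells it was at 39.6 CPM [24.5 to 60.6]. Both intervals overlapped that of the Ctla2a cluster.

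Across the LK classes of at least 50 cells Mycn spanned a wider range than Myc. Mycn was at 42.6 CPM [36.8 to 49.1] in 526 megakaryocyte lineage-like cells, 31.7 [25.9 to 38.5] in 383 stem and multipotent progenitor-like cells and 21.5 [17.1 to 26.7] in 408 erythroid progenitor-like cells. It was at 3.84 [2.70 to 5.29] in the 715 cells led by Cpa3, Ccl9 and Cd34, 0.679 [0.311 to 1.29] in the 655 cells led by Prg2, Elane and Ms4a3, and 0.629 [0.287 to 1.19] in the 715 cells led by F13a1, Irf8 and Ms4a6c. The first of these unnamed clusters also carries Cebpa, and the other two granulocytic and monocytic genes. The intervals of the last 2 overlap, while those of the erythroid and megakaryocyte classes do not. The megakaryocyte class depended on the resolution. At resolution 2 it held 232 cells with 61.7 CPM of Mycn [51.5 to 73.3], and a class of 389 mast cell and basophil-like LK cells with 10.7 CPM [7.71 to 14.4] stood apart, while at 0.5 a class of 916 cells that took in erythroid cells had 32.6 CPM. Among these 6 classes Myc ran from 80.1 CPM in the F13a1 cluster to 113 in the Cpa3 cluster. It was at 92.5 in the erythroid and 90.0 in the megakaryocyte class. The clusters lowest in Mycn were also the deepest of these 6, with medians of 20011 and 19927 UMIs against 7859 in the megakaryocyte class. At resolution 2 Myc was at 77.7 CPM [70.5 to 85.4] in 534 erythroid progenitor-like LK cells. A smaller LK cluster of 31 cells led by Igha, Jchain and Iglc1 had 18.8 CPM [11.1 to 29.7] of Myc and 0 UMIs of Mycn. At resolution 0.5 a class of 31 erythroid progenitor-like LK cells had the same values.

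Among TBM classes of at least 50 cells, Myc was low in the neutrophil-like, monocyte-like and erythroblast-like classes. It was higher in the B cell-like classes and in clusters led by T cell and dendritic cell genes. It was at 79.0 CPM in 145 cells led by Ccl5, Trbc2 and Ms4a4b (T and natural killer cell genes), 37.9 in 76 cells led by Cd209a, Cd7 and Cox6a2 (dendritic cell genes), 20.8 in B cell-like and 20.2 in pro-B and pre-B cell-like cells, 9.15 in monocyte-like and 1.96 in mature neutrophil-like cells. No Myc UMI was found in 133 erythroblast-like cells. Of smaller TBM classes, 39 cells led by F13a1, Irf8 and Ms4a6c had 93.9 CPM [73.5 to 118] of Myc. In 33 granulocyte-monocyte progenitor-like cells Myc was at 80.6 [59.2 to 107], and in 33 mast cell and basophil-like cells at 38.5 [14.1 to 83.7]. Mycn had no UMI in the mature neutrophil-like, immature neutrophil-like, B cell-like or monocyte-like classes, with upper limits between 0.788 and 2.26 CPM, and 4 UMIs (1.93 CPM [0.526 to 4.93]) in pro-B and pre-B cell-like cells.

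Among the classes, Mxd1 was highest in mature neutrophil-like cells. The 949 mature neutrophil-like cells had 341 CPM [319 to 364], the 574 immature neutrophil-like cells 69.0 [61.7 to 76.9], and the 133 erythroblast-like cells 94.7 [75.2 to 118]. B cell-like, pro-B and pre-B cell-like and monocyte-like cells were at 9.19, 5.78 and 7.79 CPM, near the 7.13 to 14.1 CPM of the LK classes of at least 50 cells. In mature neutrophil-like over B cell-like cells the log2 ratio was 5.21 [4.48 to 6.06] for Mxd1 and stayed between 5.21 and 5.61 with other clusterings. Thinned to 2000 UMIs, 43.6% of the 489 mature neutrophil-like and 0.676% of the 296 B cell-like cells deep enough had an Mxd1 UMI. S100a8, an abundant neutrophil gene, stood at 2246 CPM in the largest B cell cluster of TBM against 220897 CPM in the Retnlg neutrophil cluster, while Mxd1 there was 11.1 against 363 CPM, and the part of free neutrophil RNA in the B cell level was not tested.

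Max was also highest in mature neutrophil-like cells, at 215 CPM, and the other members had other orders. In mature neutrophil-like over B cell-like cells Max was higher by a log2 ratio of 1.09 [0.84 to 1.35] and Mxi1 by 2.05 [1.38 to 2.79], Mxd4 was lower at -1.44 [-1.97 to -0.92], Myc was lower at -3.41 [-5.12 to -2.05], and the Mnt interval held 0. Mxd4 was highest in pro-B and pre-B cell-like cells at 84.3 CPM, followed by 79.1 in lymphoid-primed progenitor-like LSK cells, and was at 0 UMIs in erythroblast-like cells. Max was lowest in erythroblast-like cells, at 22.2 CPM.

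**Figure D3:**
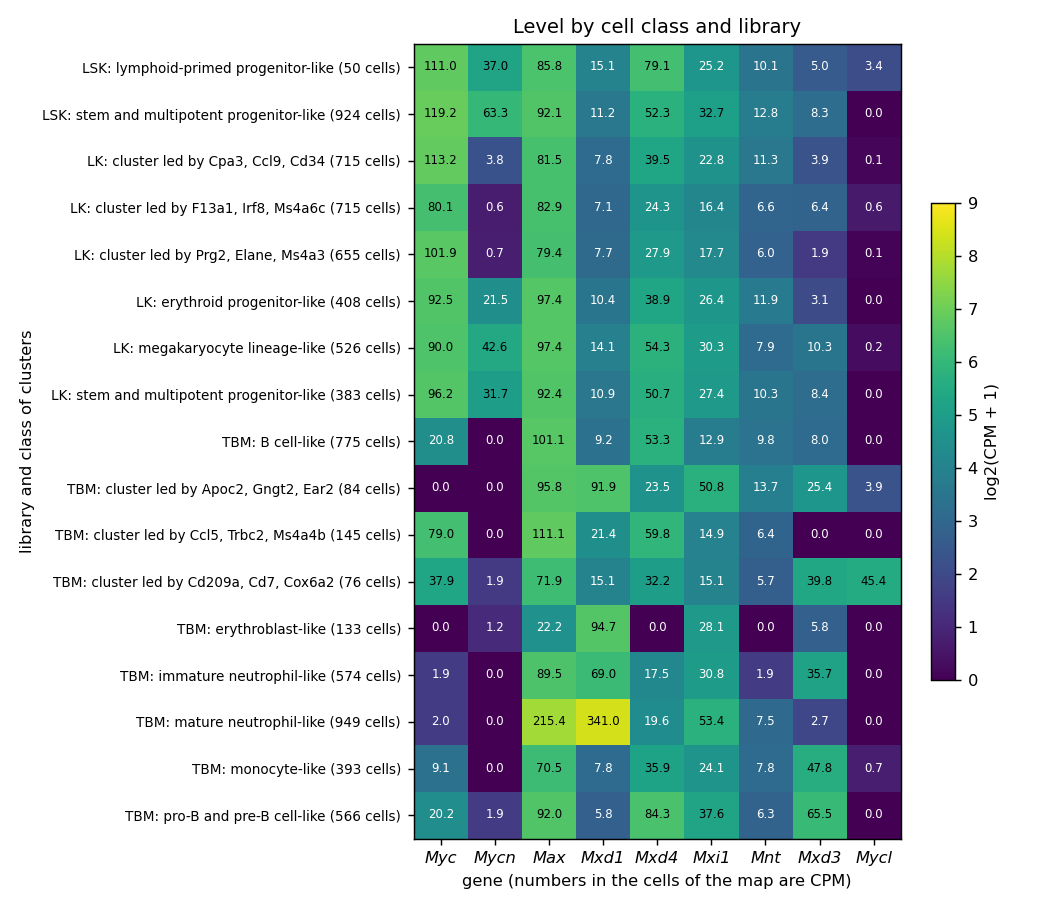
Map of CPM of summed UMIs (printed in each field, colour on a log2(CPM + 1) scale) for the 7 members and for Mxd3 and Mycl in classes of at least 50 cells of each library, with 1 class not shown. Mxd1 is 341.0 in mature neutrophil-like cells and Mycn is above 20 in both LSK rows and 3 LK rows and between 0.0 and 3.8 in the other rows.

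Neutrophil-related cells were followed in TBM clustered by itself, in 1 granulocyte-monocyte progenitor-like and 5 neutrophil-like clusters ordered by falling median UMIs, from 15770 in the Fcnb, Chit1 and Vcam1 cluster to 1316.5 in the Il1b cluster. Mxd1 in this order was 17.2, 51.5, 99.9, 200, 363 and 519 CPM, higher at every step with no overlap of neighbouring intervals, and Max was 74.3, 77.2, 104, 161, 226 and 261 CPM. Counted per cell the picture differed: Mxd1 was at 0.273, 0.583, 0.552, 0.776, 1.05 and 0.791 UMIs per cell, whereas Max was at 1.18, 0.874, 0.577, 0.624, 0.653 and 0.397. Per cell, Max was therefore lower in the last cluster than in the first, the opposite of its CPM, also when counted from the first neutrophil-like cluster (0.874 against 0.397). Mxi1 was between 30.3 and 59.1 CPM, and its UMIs per cell went from 0.576 to 0.0470. Myc was at 7.62 CPM in the Fcnb cluster and between 0 and 5.61 CPM in the rest. The Fcnb value depended on the clustering. Among clusters built over all libraries, the granulocyte-monocyte progenitor-like one, also led by Fcnb, had 80.6 CPM [59.2 to 107] of Myc in 33 TBM cells. An unnamed TBM cluster of 85 cells led by Apoe, Adgre4 and Gngt2 also had 89.8 CPM of Mxd1, together with 126488 CPM of S100a8, and the part of neutrophil RNA in that level was not tested.

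**Figure D4:**
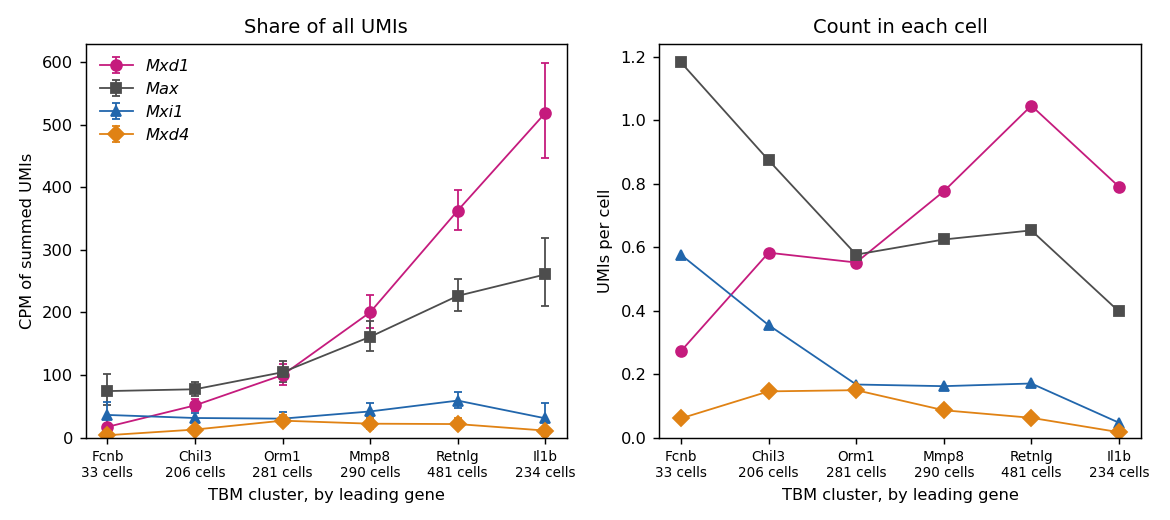
Mxd1, Max, Mxi1 and Mxd4 in 1 granulocyte-monocyte progenitor-like (Fcnb) and 5 neutrophil-like clusters of TBM clustered by itself, ordered by falling median UMIs and named by their first leading gene, as CPM of summed UMIs with exact 95% Poisson intervals (left) and as UMIs per cell (right). Max ends at 261 CPM from 74.3 but at 0.397 UMIs per cell from 1.18, and Mxd1 ends higher on both scales.

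Splitting cells by a UMI of Mki67 or Top2a, genes of dividing cells, gave differences for some members. Mxd3, a further Mxd gene known from S phase, had all of its 103 LSK UMIs in the 439 cells with such a UMI, at 16.2 CPM [13.2 to 19.7], and 0 UMIs in the 629 cells without. In LK it had 7.16 against 0.652 CPM, and in TBM 80.3 against 2.67. Mxd3 overlaps Prelid1 on the opposite strand, and Prelid1 had 15644 UMIs against 1305. Mxd4 went the other way, with 37.2 CPM [32.6 to 42.2] in LSK cells with and 66.1 CPM [59.5 to 73.2] without such a UMI, 27.4 against 45.3 in LK and 15.3 against 45.4 in TBM. Mxd1, Mxi1 and Mnt had overlapping intervals in LSK, at 10.5 against 12.7, 28.7 against 32.2 and 12.9 against 12.2 CPM, while in TBM Mxd1 was at 35.6 against 109 and Mxi1 at 46.0 against 30.6. Mycn was at 29.9 against 86.5 CPM in LSK and at 5.34 against 15.2 in LK. Myc was at 104 [96.4 to 112] against 131 [121 to 141] CPM in LSK. It was at 83.5 [80.4 to 86.6] against 115 [110 to 120] in LK and 22.5 against 22.2 in TBM. Max was at 86.6 against 96.8 in LSK, with overlapping intervals, 85.0 against 84.8 in LK and 71.0 against 118 in TBM. Cells with such a UMI were deeper, with medians of 14390 against 8273 UMIs in LSK and 8988 against 2292 in TBM, and the part of depth was not tested.

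The remaining genes of the network were read in the same way. Mycl, the third Myc gene, was at 45.4 CPM in the 76 TBM cells led by Cd209a, Cd7 and Cox6a2, a cluster left unnamed because the plasmacytoid and conventional dendritic cell lists scored nearly alike, and at most 3.91 in any other class of at least 50 cells. Mga, which also pairs with Max, had 30.7, 17.4 and 11.5 CPM in LSK, LK and TBM. Mlx and Mlxip, of the parallel Mlx network that senses glucose, had 23.8, 38.2 and 28.7 CPM and 4.05, 3.48 and 5.13 CPM. Mlxipl had too few UMIs to compare. Mxd3 had 8.69, 4.96 and 43.3 CPM. Of these 6 genes, 4 reached 20 UMIs over LSK and LK and none differed 2-fold. By that rule 19.9% of all genes were higher and 3.73% lower. In LK over TBM 5 were measured, with 0 higher and 2 lower, against 27.3% and 16.7% of all genes. The lowest was Mxd3, at a log2 ratio of -3.13. In LSK over TBM 1 (Mga, at 1.41) was higher and 2 were lower, against 36.9% and 13.1%. Mxd3 was again lowest, at -2.32.

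Co-detection was counted after thinning to 2000 UMIs and set beside the number that the product of both shares gives. Myc and Mycn were seen together in 28 LSK cells where 22.3 were expected, in 15 LK cells where 18.5 were expected and in 1 TBM cell where 0.21 were expected. The LSK ratio of 1.25 was 1.63 at 1000 UMIs, 1.04 at 4000 UMIs and 0.994 unthinned, and no direction is read from it. Unthinned, LK had 153 such cells where 203.6 were expected, and TBM had 10 where 1.34 were expected. In LSK the ratio over 11 pairs with at least 5 expected cells ran from 0.778 for Myc with Mxi1 to 1.65 for Mycn with Mxi1, which rests on 10 cells. In TBM Myc and Mxd1 shared 1 cell where 10.1 were expected, and Max and Mxd1 shared 104 where 69.9 were expected. The expected numbers treat a library as 1 population, whereas Mxd1 ran from 5.78 to 341 CPM over the TBM classes. Co-detection within classes is not given, so pairing or exclusion within a kind of cell cannot be read from these ratios. In LSK 23.0% of cells had Myc or Mycn without Mxd1, Mxd4, Mxi1 or Mnt, 14.0% had such a repressor only and 5.90% had both. The same shares were 17.1%, 12.0% and 3.39% in LK and 2.49%, 25.3% and 0.375% in TBM, so cells with only a repressor outnumbered those with only an activator in TBM and not in the progenitor gates.

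Across the 18 classes of at least 50 cells, Pearson correlations of log2(CPM + 1) describe which genes share a pattern. They carry no p because classes of a library share its depth and preparation. Among the members Mxd4 and Mnt were most alike, at 0.81, and Myc and Mxd1 most opposed, at -0.79. Of 10543 genes compared, those most like Myc were Nat10 (0.98), Smyd5 (0.98), Atp23 (0.98), Sirt5 (0.98) and Nt5c3b (0.98). Those most like Mycn were Sgce (0.96), 2900052L18Rik (0.95), Nap1l3 (0.95), Cavin3 (0.94) and Gm43568 (0.93), and those most like Mxd1 were Abtb1 (0.88), 4732465J04Rik (0.88), Grina (0.88), Ankrd22 (0.85) and Hipk1 (0.84).

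Genes known as Myc targets were read from a list of 36. In LK over TBM 33 were at least 2-fold higher, where 27.3% of all genes were, and 1, Tfrc, the transferrin receptor, was lower, with a median log2 ratio of 2.03 against 0.37 over all genes. Srm, which makes spermidine, stood at 309 against 49.7 CPM, the nucleolar gene Nop58 at 233 against 43.2 and the chaperonin gene Hspd1 at 575 against 108. In LSK over TBM 31 were higher and 1 lower, against 36.9% and 13.1% of all genes, with a median of 1.77 against 0.67. Between LSK and LK none reached 2-fold in either direction, where 19.9% of all genes were higher and 3.73% lower. The median was -0.27 against 0.34. Tfrc was at 7.26 in LSK and 14.0 in LK, Ccnd2, a G1 cyclin, at 275 and 153, and Srm at 175 and 309 CPM. Procr-only over Flt3-only LSK cells gave none either, where 5.74% of all genes were higher and 2.88% lower. The median was -0.31 against 0.03. Mycn differed 5.18-fold between these cells, and a link between Mycn and the target genes was not tested.

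Of 18 cofactors and turnover genes of Myc and Mxd proteins, 5 were at least 2-fold higher in LK than in TBM, near the 27.3% of all genes. None was lower, where 16.7% of all genes were, and the median was 0.61 against 0.37. Kat2a, the acetyltransferase GCN5, stood at 59.1 against 12.8 CPM, and Ruvbl2 and Ruvbl1, helicases of the TIP60 complex, at 183 against 42.9 and 162 against 38.7. Between LSK and LK 1 was higher, Usp28, a deubiquitinase that stabilises Myc, at 4.56 against 1.88 CPM, and none lower. Among all genes 19.9% were higher and 3.73% lower in this comparison. Trrap was at 15.8 against 9.36 and the corepressor Sin3a at 24.7 against 14.7. Of 6 genes that Myc is known to repress, 5 were measured. Between LSK and LK none reached 2-fold, against the same 19.9% and 3.73% of all genes. Ndrg1, Cdkn1a and Cdkn1b were at 70.7, 60.9 and 19.8 CPM in LSK against 39.0, 34.4 and 11.3 in LK. Gadd45a was at 30.8 against 46.0 and Cdkn2c at 54.6 against 40.5. In LK over TBM 2 were higher and 3 lower, against 27.3% and 16.7% of all genes. Cdkn1a was at 34.4 against 10.5, Cdkn1b at 11.3 against 39.5 and Cdkn2c at 40.5 against 107.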

How the data were processed

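Each library was deposited by the authors as unnormalized UMI counts per gene and barcode; the submitters' processing notes name Cell Ranger 4.0.0 and the mm10 build, and no source used here gives the annotation, the cell calling or the treatment of intronic reads. Of 1091 LSK, 3560 LK and 4317 TBM barcodes (1070, 3441 and 3984 cells are stated), those with at least 200 genes and at most 10% mitochondrial UMIs were kept. Scrublet removed 2, 2 and 65 doublets (0.187%, 0.0577% and 1.52%), so undetected doublets remain likely. The members and lists were chosen with earlier results of these data known. CPM, log2 ratios and intervals were computed in Python 3.11.15 with scipy 1.17.1. A gene counted as higher or lower when its CPM differed at least 2-fold with at least 20 UMIs over both groups. With 1 library per gate no test is possible, and cells were not treated as replicates. The ratio code was tested on simulated data. Shares were compared after thinning to 2000 UMIs. The floor of 3 UMIs was 0.253, 0.0600 and 0.136 CPM in LSK, LK and TBM.

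Clusters came from scanpy 1.11.5 and leidenalg 0.10.2 (resolution 1, 2000 variable genes without the members, other network, gate, cell-cycle, ribosomal, mitochondrial and immunoglobulin or T cell receptor genes, 30 components, 15 neighbours). A cluster took the name of its highest-scoring marker list if at least 3 markers were seen in 10% of its cells and its 10 leading genes held at least 1 of them and no more of another list. A cluster whose second list scored at least 0.8 of the first stayed unnamed, except between the immature and mature neutrophil lists, an exception set after a first clustering had been seen. Genes of each list were named if among the 3 with the largest change in LSK over LK or LK over TBM. GENCODE M21 matched 32235 of the 32285 genes. Alternatives were size factors, equal weight per cell, other cell filters, thinning depths, cluster resolutions and count minimums. No p-value was computed. The levels of 1 TBM cluster are not reported here.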

Additional observations from a re-analysis of the deposited data

How the results depend on the processing

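Scaling by size factors moved the LSK over LK log2 ratio to 0.032 for Myc and 2.42 for Mycn, LK over TBM to 1.68 for Myc and -3.45 for Mxd1, and LSK over TBM to 1.71 for Myc, 3.79 for Mycn and -3.28 for Mxd1. It reversed Max in LSK over LK to -0.17 and Mxd4 in LK over TBM to -0.22. Equal weight for each cell gave 2.04 for Mycn in LSK over LK; 2.83, 3.28 and -3.57 for Myc, Mycn and Mxd1 in LK over TBM; and 3.09, 5.32 and -3.28 in LSK over TBM. At 1000 UMIs the thinned LSK shares were 12.3% for Myc and 6.09% for Mycn, as fewer UMIs per cell give fewer cells with one. For Procr-only over Flt3-only LSK cells, Mycn was 3.01 with at least 2 UMIs and 1.72 when thinned to 4000 UMIs, and Myc was -0.35 when thinned and -0.38 without cycling cells. With size factors 2 textbook Myc targets were at least 2-fold lower in LSK than in LK. With the same scaling 2 members were lower in both LK over TBM and LSK over TBM. No share of all genes is given with size factors, so these counts are no result about the targets or the members. Apart from the scalings, the cause of these changes was not tested. By cluster resolution, chosen after seeing the data, Mycn in LK megakaryocyte lineage-like cells was 32.6 CPM at 0.5 and 61.7 CPM at 2. Other cell filters kept the values of Myc and Mycn in LSK over LK within their intervals. No paired analysis was possible because each gate has 1 library. No class ratio is given for Mycn, which had 0 UMIs in both classes. For any member, a class at 0 UMIs is known only to its upper limit.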
